A study of Mus musculus with 12 samples.

Results

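The SLAM family genes Slamf1, Slamf6, Slamf7, Ly9, Cd84 and Cd48, together with Havcr1, were followed in mouse B cells that had been activated with or without IL-4 and that either carried or lacked STAT6. The genes were found on the array by their names, which gave 7 of the 34650 gene names and 12 of the 55681 probes. SLAM family receptors are surface proteins of blood cells built from immunoglobulin-like domains, and most of them bind the same receptor on a neighbouring cell. Tyrosine motifs in the tails of several members recruit small SH2 adaptors such as SAP, and compete with phosphatases for this docking, while CD48 has no tail and is held in the membrane by a lipid anchor. Havcr1 encodes TIM-1, a receptor of another family that binds phosphatidylserine and is carried by activated and regulatory B cells.

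The cells were splenic B cells of female BALB/c mice, 9 weeks old, purified by negative selection. Every culture, in all 4 groups, received anti-CD40 at 10 µg/ml plus LPS (lipopolysaccharide) at 2 µg/ml for 4 days, with fresh medium on day 3, so the controls are themselves activated cells. The groups were wild-type control and STAT6 knockout control without IL-4, and wild-type IL-4 and knockout IL-4 with 25 ng/ml of IL-4. Each group had 3 arrays, and the labels do not say whether its samples came from separate animals, so p-values may measure only technical spread.

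Values are log2 signals after subtraction of each array's 75th percentile, so that a value of 0 lies at that percentile and a difference of 1 is a 2-fold change. The 75th percentile lay between 296 and 356 in intensity, and 40.7% to 44.0% of the spots were well above background. Arrays of a group correlated at 0.994 to 0.998 across genes. By its brightest probe Stat6 was 3.84-fold lower in the knockout both without IL-4 (log2 difference -1.94 ± 0.08 SE, limma, adjusted p = 1.03e-06) and with it. Its other probes differed by -0.88 and -2.28 without IL-4 and by -1.28 and -2.36 with it. Yet all its probes were well above background on all knockout arrays, and where they lie relative to the deletion is not known here. The 6 B cell markers were detected in every group. The summed signal of 6 macrophage markers, in units of the 75th percentile, was 20 to 20.8 on the wild-type IL-4 arrays and 55.9 to 61.3 on all others. Within that list Mpeg1, Emr1 and Cd68 fell with IL-4 in wild-type cells (13.2-fold, 1.89-fold and 1.36-fold) and Cd14 rose 1.31-fold. Csf1r changed by -0.12 (limma, adjusted p = 0.593). Mpeg1 and Emr1 were the brightest of those tested on the wild-type controls, with means of 4.86 and 4.50. The sum of 5 plasma cell markers was 108 to 111 on the knockout IL-4 arrays and 199 to 248 on all others, but its members moved apart: with IL-4 in wild-type cells Igj fell 56.5-fold and Prdm1 7.03-fold while Xbp1 rose 1.83-fold, and in knockout cells these fell 10.8-fold, 3.22-fold and 1.87-fold. Of these lists, 5 macrophage and 5 plasma cell markers were well above background in every group, and the macrophage marker Lyz2 was so on 2 wild-type control arrays only. Dendritic cell markers summed to 111 to 147, with Itgax well above background on the wild-type IL-4 arrays only and Clec9a on none. Siglech was the brightest of them, with group means of 6.55 to 6.85, and the others moved apart. With IL-4 in wild-type cells Flt3 fell 3.13-fold, while Zbtb46 rose 2.55-fold and Siglech 1.24-fold. In knockout cells Zbtb46 rose 1.97-fold, and Flt3 and Siglech changed by 0.09 and -0.12 in log2 units. T cell and NK cell markers summed to 2.15 to 6.38. Cd3d, Cd3e, Cd3g, Cd4, Prf1 and Nkg7 were well above background on every array. Cd28 was so on 2 knockout IL-4 arrays and on all arrays of the other groups. With IL-4 in wild-type cells Cd28 rose 3.58-fold and Cd3d 1.66-fold, and Prf1 and Nkg7 fell 1.37-fold and 1.21-fold. In log2 units Cd3e, Cd3g and Cd4 changed by 0.28, 0.14 and -0.10 there. In knockout cells Cd28 fell 2.72-fold. Cd8a, Cd8b1, Ncr1, Klrb1c and Klrk1 were not well above background on any array. The part of these other cell types in the results below was not tested, and in bulk RNA fewer cells of a type and less RNA per cell cannot be told apart. The arrays came from 2 slides: the wild-type arrays shared slide 1 with knockout controls 1 and 2, whereas the knockout IL-4 arrays shared slide 2 with knockout control 3.

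The members' probes are 60 bases long. Positions are in mm9, as the files give them. Of the members, 6 lie on chromosome 1 within 355 kb, from 173518744 to 173873679, in the order Ly9, Slamf7, Cd48, Slamf1, Cd84 and Slamf6, with no other tested gene between their probes. Havcr1 lies on chromosome 11. The single Slamf1 probe is at chr1:173730343-173730402 and the single Slamf7 probe at chr1:173562534-173562593. The other 5 members have 2 probes each. The sequences below are those of the Havcr1 pair, which sit at separate places in the gene and gave similar IL-4 responses, and of the dimmer Slamf6 probe, which gave a smaller response than the brighter one. The brighter Havcr1 probe, at chr11:46569677-46569736, was designed on a TIM1 mRNA of BALB/c mice, per its description on the array. The dimmer one is at chr11:46592056-46592115, and the dimmer Slamf6 probe at chr1:173871767-173871826, upstream of the brighter one at chr1:173873620-173873679.
Havcr1, brighter probe: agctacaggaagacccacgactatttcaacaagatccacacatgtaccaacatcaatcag
Havcr1, dimmer probe: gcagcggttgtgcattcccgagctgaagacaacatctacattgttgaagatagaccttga
Slamf6, dimmer probe: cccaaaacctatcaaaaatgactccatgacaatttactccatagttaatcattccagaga

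IL-4 divided the members into separate patterns. In wild-type cells Havcr1 and Slamf1 rose more than 2-fold, Slamf7 rose 1.70-fold, Cd84, Cd48 and Ly9 rose by at most 1.16-fold, and Slamf6 fell 1.41-fold. In cells without STAT6, Slamf1, Ly9, Slamf7, Cd84, Slamf6 and Havcr1 rose, none by 2-fold, and Cd48 did not pass the test. The response differed between genotypes for Havcr1, Slamf1 and Slamf7, where it was larger in wild-type cells, and for Slamf6 and Ly9, where it was lower in them. These statements rest on the brighter or only probe of each member and on limma, with p-values adjusted over the 16497 genes tested. They use an adjusted p under 0.05 with no minimum size. The dimmer probes did not call the rise of Cd48 in the wild type or those of Slamf6 and Havcr1 in the knockout.

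**Figure D1:**
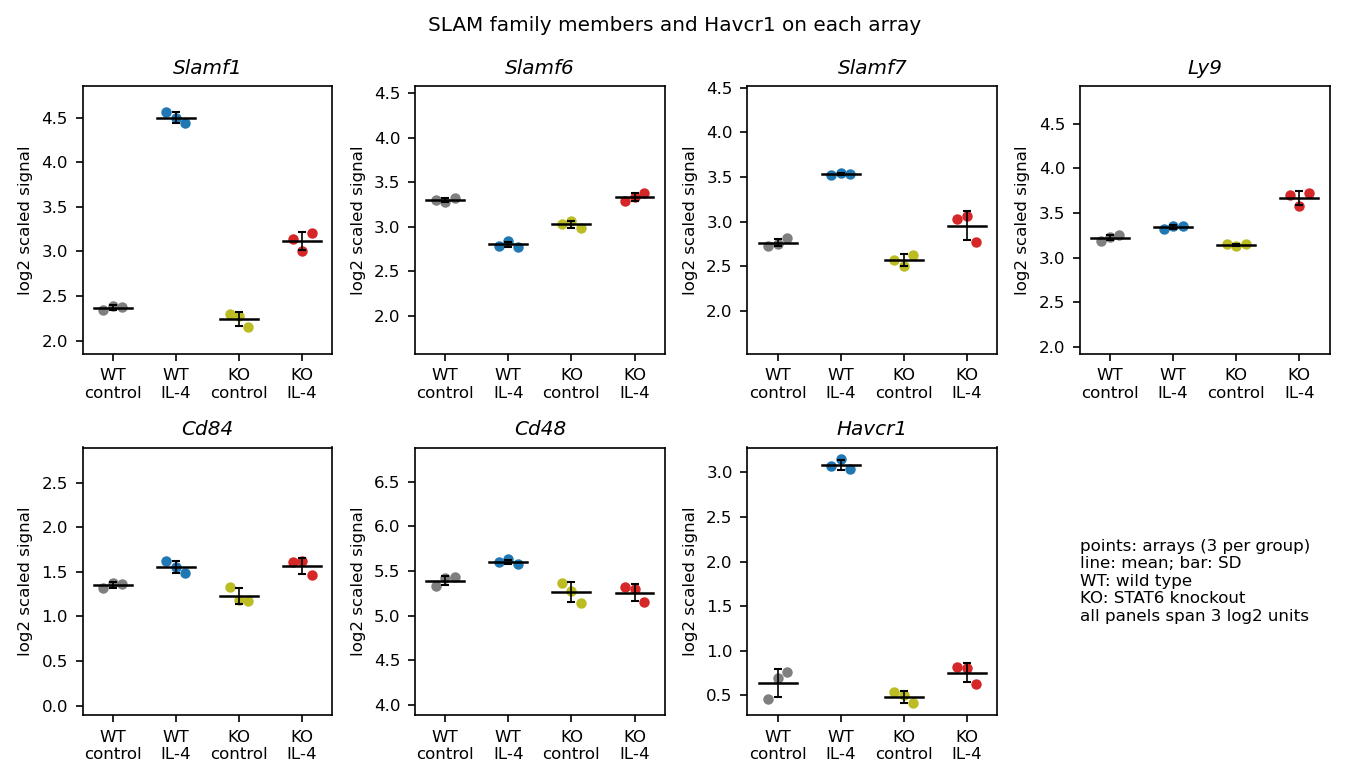
Log2 scaled signal of each member's brighter or only probe (y axis, 0 at the array's 75th percentile; every panel spans the same number of log2 units) on the 3 arrays of each group (points), with the mean (line) and SD (bar). The wild-type IL-4 arrays stand above all others for Slamf1, Slamf7, Cd48 and Havcr1 and below all others for Slamf6, while the knockout IL-4 arrays are the highest for Ly9.

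Against the whole array these counts need their background. In wild-type cells 6 of 7 members rose and 1 fell, where 57.1% of all genes tested passed in either direction, 26.4% higher and 30.8% lower. In knockout cells 6 of 7 rose and 0 fell, against 42.2% of all genes, 27.5% higher and 14.7% lower. The interaction, which is the wild-type response minus the knockout response, was above 0 for 3 members and below 0 for 2, against 16.4% and 28.3% of all genes (44.8% in either direction). The members' median log2 change was 0.21 in wild-type cells and 0.33 in knockout cells, against -0.04 and 0.05 over all genes tested. With the added minimum of 2-fold, Slamf1 and Havcr1 passed in wild-type cells, where 5.72% of all genes were higher and 12.7% passed in either direction, and 0 members passed in knockout cells, where 0.788% were higher and 2.73% lower (3.52% in all). The interaction exceeded 2-fold for the same pair, against 5.61% of all genes above 0, 5.03% below 0 and 10.6% in all.

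**Figure D2:**
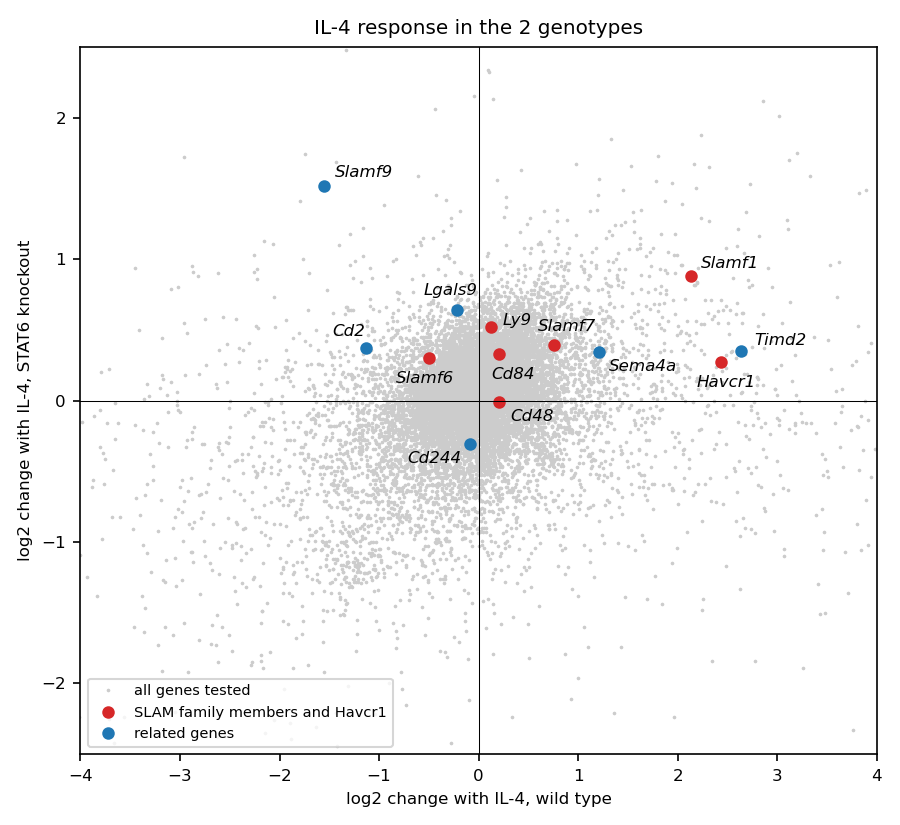
Log2 change with IL-4 in wild-type cells (x axis) against that in STAT6 knockout cells (y axis) for all genes tested (grey, of which 138 lie outside the axes), the members (red) and related genes (blue). Slamf1 and Havcr1 lie at 2.13 and 2.44 on the x axis and at 0.88 and 0.27 on the y axis. Slamf6 (by its brighter probe), Cd2, Lgals9 and Slamf9 lie at the upper left, with a fall in wild-type and a rise in knockout cells.

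Slamf1 encodes SLAM (CD150), the founding member, which binds itself across cells. The wild-type control arrays read 2.34, 2.39 and 2.38, and the wild-type IL-4 arrays 4.56, 4.50 and 4.44. The knockout control arrays read 2.30, 2.28 and 2.15, and the knockout IL-4 arrays 3.14, 3.01 and 3.21. The IL-4 arrays lay above the controls in each genotype with no overlap, and the wild-type IL-4 arrays lay above the knockout ones. Slamf1 rose 4.38-fold in wild-type cells (2.13 ± 0.06 SE, adjusted p = 1.38e-09). In knockout cells it rose 1.84-fold (0.88 ± 0.06, adjusted p = 5.59e-06), which is 41.1% of the wild-type change on the log2 scale. Only 1.38% of the genes tested had as large a rise in the knockout, and 1.89% as large a rise in the wild type. The responses differed by 1.25 ± 0.09 (adjusted p = 2.08e-06). Without IL-4 the genotypes differed by -0.12 ± 0.06 (adjusted p = 0.195), although their arrays did not overlap, and with IL-4 Slamf1 was 2.60-fold lower in the knockout (-1.38 ± 0.06, adjusted p = 3.68e-08). The knockout response compared within slide 2, against knockout control 3 alone, was 0.97 (adjusted p = 1.19e-04). A single control array has no spread of its own there, so that p assumes that it varies like the arrays of the other groups, as do all values below with slide as a block that involve the knockout IL-4 arrays.

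Slamf7 encodes CRACC (CD319), a self-binding member found on activated B cells and plasma cells. Its wild-type control arrays read 2.73, 2.75 and 2.81, and its wild-type IL-4 arrays 3.52, 3.54 and 3.53. The knockout controls read 2.57, 2.5 and 2.63, and the knockout IL-4 arrays 3.03, 3.06 and 2.77. The wild-type IL-4 arrays were the highest, and knockout IL-4 array 3 lay below the other arrays of its group and within the range of the wild-type controls. Slamf7 rose 1.70-fold in wild-type cells (0.76 ± 0.07, adjusted p = 8.5e-06) and 1.31-fold in knockout cells (0.39 ± 0.07, adjusted p = 0.00193). The responses differed by 0.37 ± 0.10 (adjusted p = 0.0148), a call that was lost with median scaling (0.24, adjusted p = 0.245) and without the filter on dim probes (adjusted p = 0.0586). With IL-4, Slamf7 was 1.49-fold lower in the knockout (-0.57 ± 0.07, adjusted p = 9.27e-05). Plasma cell markers differed in both directions in this contrast, with Xbp1 and Sdc1 lower in the knockout (-1.88 and -0.71) and Igj and Prdm1 higher (2.34 and 0.83), and their part in it was not tested. Without IL-4 the genotypes differed by -0.20 ± 0.07 (adjusted p = 0.0969), and this passed when knockout IL-4 array 3 was left out of the fit (adjusted p = 0.0195).

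Slamf6 encodes Ly108, another self-binding member, and was the only one of the 7 to fall with IL-4 in wild-type cells. The wild-type controls read 3.30, 3.28 and 3.32, and the wild-type IL-4 arrays 2.79, 2.84 and 2.78. In the knockout the controls read 3.03, 3.07 and 2.99, and the knockout IL-4 arrays 3.29, 3.34 and 3.38. IL-4 arrays lay below controls in the wild type and above them in the knockout, without overlap in either. Slamf6 fell 1.41-fold in wild-type cells (-0.50 ± 0.04, adjusted p = 3.78e-06) and rose 1.23-fold in knockout cells (0.30 ± 0.04, adjusted p = 3.47e-04). Between genotypes the response differed by -0.80 ± 0.06 (adjusted p = 3.37e-06). Falling in one genotype and rising in the other, each at an adjusted p under 0.05, was found for 767 of the 16497 genes (4.65%). By the brighter or only probe, Slamf6 was also the only member lower in the knockout without IL-4 (1.2-fold, -0.27 ± 0.04, adjusted p = 0.00739). In that contrast 11.7% of all genes passed in either direction, with 4.73% higher and 6.96% lower. The call was lost without the filter on dim probes (adjusted p = 0.0627), and the dimmer Havcr1 probe was lower there too (-0.49, adjusted p = 0.0356 over probes). With IL-4 Slamf6 was 1.45-fold higher in the knockout (0.53 ± 0.04, adjusted p = 2.89e-06).

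The dimmer Slamf6 probe, whose sequence is printed above, showed less of this. Its wild-type controls read 3.18, 3.34 and 3.24 and its wild-type IL-4 arrays 3.02, 3.02 and 3.03. The knockout controls read 3.1, 2.93 and 2.93 and the knockout IL-4 arrays 3.1, 3.11 and 2.93, so these groups overlapped. It fell in the wild type by 0.23 ± 0.07 (adjusted p = 0.0169 over probes) and differed by 0.06 ± 0.07 in the knockout (adjusted p = 0.514). Its interaction was -0.29 ± 0.10 (adjusted p = 0.0364), and leaving out any 1 of 9 of the 12 arrays lost that call (adjusted p of 0.0626 to 0.0878). With IL-4 this probe differed between genotypes by 0.02 ± 0.07 (adjusted p = 0.812), with overlapping arrays, where the brighter one was higher in the knockout. Without wild-type control 2 its fall in the wild type no longer passed (-0.19, adjusted p = 0.069). In the authors' deposited table of values per gene, Slamf6 differed by 0.08 in the knockout, with an adjusted p of 0.14 from the same limma model. The rise of Slamf6 with IL-4 in the knockout, and its higher level there than in wild-type IL-4, were thus called with the brighter probe and not with the dimmer one.

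Ly9 encodes CD229, a larger member with a doubled set of outer domains that binds itself. Its wild-type controls read 3.19, 3.23 and 3.25 and its wild-type IL-4 arrays 3.32, 3.36 and 3.35. The knockout controls read 3.15, 3.13 and 3.15 and the knockout IL-4 arrays 3.70, 3.58 and 3.72. The knockout IL-4 arrays were the highest, and each group stood apart from the others. Ly9 rose 1.44-fold in the knockout (0.52 ± 0.05, adjusted p = 1.8e-05). In the wild type it rose 1.09-fold (0.12 ± 0.05, adjusted p = 0.0468), a call that held in 6 of 23 alternatives (adjusted p of 0.0272 to 0.231) and was lost on leaving out any array but knockout IL-4 arrays 2 and 3. The responses differed by -0.40 ± 0.07 (adjusted p = 7.06e-04), so Ly9 responded more without STAT6 than with it. With IL-4 it was 1.25-fold higher in the knockout (0.32 ± 0.05, adjusted p = 2.18e-04), and without IL-4 the difference was -0.08 ± 0.05 (adjusted p = 0.225).

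The second Ly9 probe, at chr1:173523555-173523614, gave values close to those. It rose by 0.51 ± 0.05 in the knockout (adjusted p = 6.62e-05) and by 0.14 ± 0.05 in the wild type (adjusted p = 0.0467), and the responses differed by -0.37 ± 0.08 (adjusted p = 0.00321). Its knockout IL-4 arrays read 2.82, 2.71 and 2.88 and its other 9 arrays 2.25 to 2.56. The wild-type rise of this probe, too, was lost on leaving out 10 of the 12 arrays in turn. The first probe lies at chr1:173518744-173518790, where 47 of its 60 bases are placed.

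Cd84 encodes CD84, a self-binding member. Its wild-type controls read 1.32, 1.38 and 1.36 and its wild-type IL-4 arrays 1.62, 1.56 and 1.49. In the knockout the controls read 1.33, 1.19 and 1.17 and the knockout IL-4 arrays 1.61, 1.62 and 1.46. The IL-4 arrays lay above the controls in each genotype, and the genotypes overlapped in each condition. Cd84 rose 1.15-fold in the wild type (0.21 ± 0.06, adjusted p = 0.0166) and 1.26-fold in the knockout (0.33 ± 0.06, adjusted p = 0.00193). The wild-type call was lost without wild-type control 1 (0.19, adjusted p = 0.0529) or wild-type IL-4 array 1 (0.17, adjusted p = 0.0657). The interaction for Cd84 was -0.13 ± 0.09 (adjusted p = 0.262), and with IL-4 the genotypes differed by 0.00 ± 0.06 (adjusted p = 0.958). Neither result shows that Cd84 behaves alike in the genotypes. This probe is placed over 2231 bases, from 173816502 to 173818732, for 60 bases of sequence. The other Cd84 probe, at chr1:173820027-173820086, was well above background on 1 wild-type IL-4 array and 1 knockout IL-4 array only and was not tested.

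Cd48 encodes CD48, the lipid-anchored member, which binds the NK cell receptor CD244 and, in mice, CD2. Its wild-type controls read 5.33, 5.42 and 5.43 and its wild-type IL-4 arrays 5.60, 5.63 and 5.58. The knockout controls read 5.37, 5.28 and 5.14 and the knockout IL-4 arrays 5.32, 5.30 and 5.15. The wild-type IL-4 arrays were the highest, and the knockout groups overlapped. Cd48 rose 1.16-fold in the wild type (0.21 ± 0.07, adjusted p = 0.0229) and differed by -0.01 ± 0.07 in the knockout (adjusted p = 0.946). The dimmer Cd48 probe did not pass in either genotype, at 0.16 ± 0.08 in the wild type (adjusted p = 0.111) and -0.08 ± 0.08 in the knockout (adjusted p = 0.449), although with quantile normalisation it fell in the knockout (-0.21, adjusted p = 0.029). The wild-type call was lost without wild-type control 1 (0.18, adjusted p = 0.0805), wild-type IL-4 array 1 (0.21, adjusted p = 0.054) or wild-type IL-4 array 2 (0.20, adjusted p = 0.0639). The interaction was 0.22 ± 0.10, which did not pass (adjusted p = 0.0919) but did without knockout control 3 (0.28, adjusted p = 0.0318), with quantile normalisation (0.30, adjusted p = 0.00707) and with the deposited values (0.30, adjusted p = 0.0103).

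With IL-4, Cd48 was 1.27-fold lower in the knockout (-0.35 ± 0.07, adjusted p = 0.00184), and the dimmer probe at chr1:173629721-173629780 gave -0.37 ± 0.08 (adjusted p = 0.00349). With slide as a block that difference was -0.16 for the brighter probe (adjusted p = 0.285). Knockout control 3, on slide 2, read 5.14, below knockout controls 1 and 2 on slide 1 (5.37 and 5.28). Wild-type IL-4 and knockout IL-4 arrays lie on different slides, so in this contrast genotype and slide differ together for every gene. For Cd48, genotype and slide cannot be told apart.

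Havcr1 gave the largest response of the 7 in wild-type cells. Its wild-type controls read 0.46, 0.70 and 0.76 and its wild-type IL-4 arrays 3.07, 3.15 and 3.04. In the knockout the controls read 0.54, 0.50 and 0.41 and the knockout IL-4 arrays 0.82, 0.81 and 0.63. The wild-type IL-4 arrays stood far above the other 3 groups, and the controls of the genotypes overlapped. Havcr1 rose 5.44-fold in the wild type (2.44 ± 0.08, adjusted p = 4.08e-09), a rise matched or exceeded by 1.5% of the genes tested. In the knockout it rose 1.21-fold (0.27 ± 0.08, adjusted p = 0.0273), which is 11% of the wild-type change on the log2 scale. The responses differed by 2.18 ± 0.12 (adjusted p = 3.18e-07), and with IL-4 Havcr1 was 5.04-fold lower in the knockout (-2.33 ± 0.08, adjusted p = 6.63e-09).

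The small rise of Havcr1 in the knockout held in 14 of 23 alternatives. It was lost without knockout control 2 (0.28, adjusted p = 0.0598), knockout control 3 (0.23, adjusted p = 0.0885), knockout IL-4 array 1 (0.24, adjusted p = 0.0908) or knockout IL-4 array 2 (0.24, adjusted p = 0.0874). With slide as a block it was 0.34 (adjusted p = 0.0542). The dimmer Havcr1 probe differed by 0.12 ± 0.12 in the knockout (adjusted p = 0.483), with 0.37, 0.31 and 0.01 on the controls and 0.53, 0.44 and 0.07 on the IL-4 arrays, which overlapped. In the wild type that probe went from 0.69, 0.74 and 0.73 to 2.88, 2.86 and 2.76, a 4.32-fold rise (2.11 ± 0.12, adjusted p = 1.8e-07). It was also 1.40-fold lower in the knockout without IL-4 (-0.49 ± 0.12, adjusted p = 0.0356), where the brighter probe differed by -0.16 ± 0.08 (adjusted p = 0.218). That call of the dimmer probe was lost on leaving out any 1 of 8 of the 12 arrays (adjusted p of 0.0508 to 0.12) and with slide as a block (-0.38, adjusted p = 0.12).

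**Figure D3:**
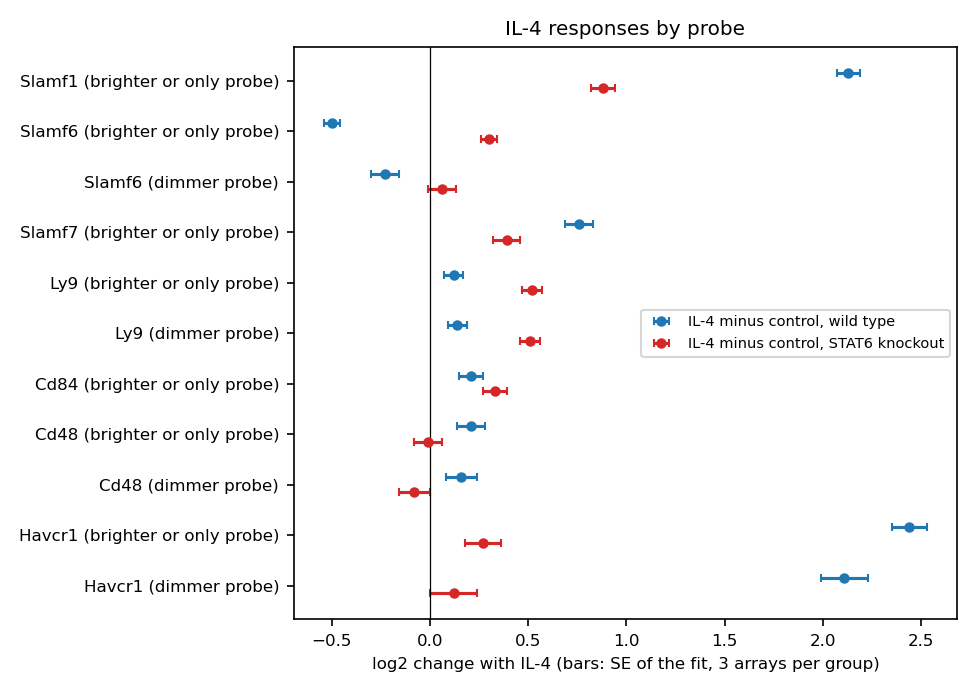
Log2 change with IL-4 (x axis; bars are the SE of the fit, 3 arrays per group) for each probe of the members that was kept, in wild-type (blue) and STAT6 knockout cells (red). The Havcr1 pair lies at 2.44 and 2.11 in the wild type and the Ly9 pair at 0.52 and 0.51 in the knockout, while the Slamf6 pair lies at -0.50 and -0.23 in the wild type.

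Between genotypes, the members differed mainly in the presence of IL-4. With IL-4, Slamf6 and Ly9 were higher in the knockout and Slamf1, Slamf7, Cd48 and Havcr1 were lower, 6 of 7 in all by the brighter or only probe (the dimmer Slamf6 probe differed by 0.02, adjusted p = 0.812), where 51.1% of all genes passed, 29.8% higher and 21.3% lower. The members' median difference was -0.35, against 0.06 over all genes. The wild-type IL-4 arrays lay on slide 1 and the knockout IL-4 arrays on slide 2, so each of these differences is also one between slides. Only knockout control 3 stands on slide 2 as a control. With slide as a block the differences were -1.24 for Slamf1, -0.66 for Slamf7, -0.16 for Cd48 and -2.22 for Havcr1. They were 0.59 for Slamf6 and 0.31 for Ly9. Past 2-fold, Slamf1 and Havcr1 were lower in the knockout, where 5.05% of all genes were lower and 4.63% higher (9.68% in all). Without IL-4 the median difference was -0.13, against -0.04. No member passed 2-fold there, where 0.837% of all genes were higher and 0.339% lower (1.18% in all). There, scaling by the array median in place of the 75th percentile put all 7 members past the test as lower, but it also moved the median of all genes to -0.22, and without the filter on dim probes 0 members passed.

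Ordered by group mean of the brighter or only probe, Slamf1, Slamf7 and Havcr1 read highest in wild-type IL-4, then in knockout IL-4, then in the controls, whose genotypes did not differ by the test. For Slamf7 and Havcr1 the knockout IL-4 arrays overlapped the wild-type controls. The dimmer Havcr1 probe had another order, with means of 2.83 in wild-type IL-4, 0.72 in wild-type control, 0.34 in knockout IL-4 and 0.23 in knockout control, and its controls differed by the test. Cd48 was highest in wild-type IL-4, and its knockout groups did not differ by the test. Cd84 was higher in the IL-4 groups, with no order between genotypes. Ly9 ran from knockout IL-4 to wild-type IL-4 and then to the controls. Slamf6 was highest in knockout IL-4 (mean 3.34 ± 0.04 SD, n = 3) and wild-type control (3.30 ± 0.02), whose arrays overlapped, then in knockout control (3.03 ± 0.04) and wild-type IL-4 (2.80 ± 0.03).

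The genes most like each member were named by Pearson's r over the 12 arrays. The arrays form 4 groups, so these values mostly reflect group means. For Slamf1 they were Smad4 (r = 0.998), B4galt3 (0.997) and Adam9 (0.996). For Havcr1 they were Klhdc2 and Rab35 (each 0.998) and Lrrc1 (0.997). Slamf7 was closest to Ctsz (0.992) and Cd84 to Snapc4 (0.980). Ly9 was closest to Loxl4 (0.985), Dact3 (0.984) and Relb, an NF-kB subunit (0.983). Slamf6 was closest to Rapgef5 (0.976) and Cx3cl1, a chemokine (0.975), and Cd48 to Abcb1b, a drug efflux pump (0.975).

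Among genes related to the SLAM family by structure or binding, Slamf9 gave the largest contrast between genotypes. It read 2.32, 2.39 and 2.35 on the wild-type controls and 0.86, 0.82 and 0.73 on the wild-type IL-4 arrays, against 2.38, 2.29 and 2.62 on the knockout controls and 3.94, 3.91 and 4.00 on the knockout IL-4 arrays. Slamf9 fell 2.93-fold in the wild type (-1.55 ± 0.08, adjusted p = 5.94e-08) and rose 2.87-fold in the knockout (1.52 ± 0.08, adjusted p = 8.93e-07). With IL-4 it was 8.85-fold higher in the knockout. Slamf6 also fell in the wild type and rose in the knockout by its brighter probe. Its dimmer probe did not pass in the knockout (0.06, adjusted p = 0.514 over probes). Cd2, a receptor that binds CD48 in mice, fell 2.19-fold in the wild type (-1.13 ± 0.07, adjusted p = 3.71e-07) and rose 1.29-fold in the knockout (0.37 ± 0.07, adjusted p = 0.00244), and its second probe changed by -1.26 and 0.37. Cd244, the other partner of CD48, differed by -0.09 ± 0.16 and -0.31 ± 0.16, neither of which passed. In all, 3 of 4 related genes were tested, of which 0 rose and 2 fell in the wild type (26.4% and 30.8% of all genes) and 2 rose and 0 fell in the knockout (27.5% and 14.7%). Slamf8 was not well above background on any array.

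The adaptors and signalling proteins that SLAM receptors use were tested for 16 of 20 genes. Sh2d1a, which encodes SAP, and Sh2d1b2 were not well above background on any array, and Sh2d1b1, which encodes EAT-2, was so on 2 knockout control arrays only. In the wild type 7 of the 16 rose and 4 fell, where 26.4% of all genes rose and 30.8% fell. In the knockout 2 rose and 1 fell, against 27.5% and 14.7%. The median change was 0.06 in the wild type and 0.03 in the knockout, against -0.04 and 0.05 over all genes. These counts and medians use the brightest or only kept probe of each gene. In the wild type, second probes of Plcg1 (0.40, limma, adjusted p = 0.0145 over probes) and Pik3c3 (-0.16, adjusted p = 0.0231) passed where the counted ones did not. Those of Vav1 and Grb2 gave the same calls as the counted ones. Kinases and phosphatases of the list each moved both ways. Fyn, the kinase that SAP recruits, rose 1.54-fold in the wild type (0.63 ± 0.07, adjusted p = 1.85e-05), and Lyn, the main Src-family kinase of B cells, fell 2.15-fold (-1.11 ± 0.06, adjusted p = 1.21e-07). Ptpn6, the phosphatase SHP-1, fell 1.91-fold (-0.93 ± 0.05, adjusted p = 4.79e-08), and Inpp5d, the lipid phosphatase SHIP-1, rose 1.44-fold (0.52 ± 0.05, adjusted p = 8.82e-06).

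In the knockout Fyn, Lyn and Inpp5d changed by 0.05, 0.16 and -0.06, and none passed (adjusted p of 0.591, 0.0604 and 0.342). Ptpn6 fell 1.10-fold there (adjusted p = 0.0385). The interaction passed for all 4, at 0.58 for Fyn, -1.26 for Lyn, 0.59 for Inpp5d and -0.80 for Ptpn6. It was largest for Dok2, at 1.40 ± 0.18 (adjusted p = 1.27e-04). Dok2 rose 2.24-fold in the wild type (1.16 ± 0.12, adjusted p = 1.87e-05) and changed by -0.24 ± 0.12 in the knockout (adjusted p = 0.155). The interaction was above 0 for 4 and below 0 for 5 of the 16 genes, against 16.4% and 28.3% of all genes. The second Pik3c3 probe, which is not counted, also passed below 0 (-0.21, limma, adjusted p = 0.0431 over probes). Dok1 and Ptpn11, which encodes SHP-2, rose in the knockout by 0.58 and 0.37 (adjusted p = 5.43e-04 and 1.04e-04).

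Of the TIM family and the ligands of TIM proteins, 3 of 7 genes were tested. Timd2, which encodes TIM-2 and whose probe lies on chromosome 11 at 46483558, near Havcr1, read 1.44, 1.56 and 1.48 on the wild-type controls and 4.12, 4.19 and 4.11 on the wild-type IL-4 arrays. On the knockout controls it read 1.67, 1.37 and 1.32 and on the knockout IL-4 arrays 1.74, 1.81 and 1.87. Timd2 rose 6.24-fold in the wild type (2.64 ± 0.08, adjusted p = 2.19e-09) and 1.28-fold in the knockout (0.35 ± 0.08, adjusted p = 0.00721), or 13.4% of the wild-type log2 change, against 11% for Havcr1. Sema4a, a semaphorin reported to bind TIM-2, rose 2.31-fold in the wild type (1.21 ± 0.08, adjusted p = 5.21e-07) and 1.26-fold in the knockout (0.34 ± 0.08, adjusted p = 0.00739). Lgals9, which encodes galectin-9, a ligand of TIM-3, fell 1.16-fold in the wild type (-0.22 ± 0.05, adjusted p = 0.00449) and rose 1.56-fold in the knockout (0.64 ± 0.05, adjusted p = 1.1e-05). Timd4 and Havcr2, for TIM-4 and TIM-3, were not well above background on any array, and Cd300lb and Selp were so on 1 knockout IL-4 array each.

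**Figure D4:**
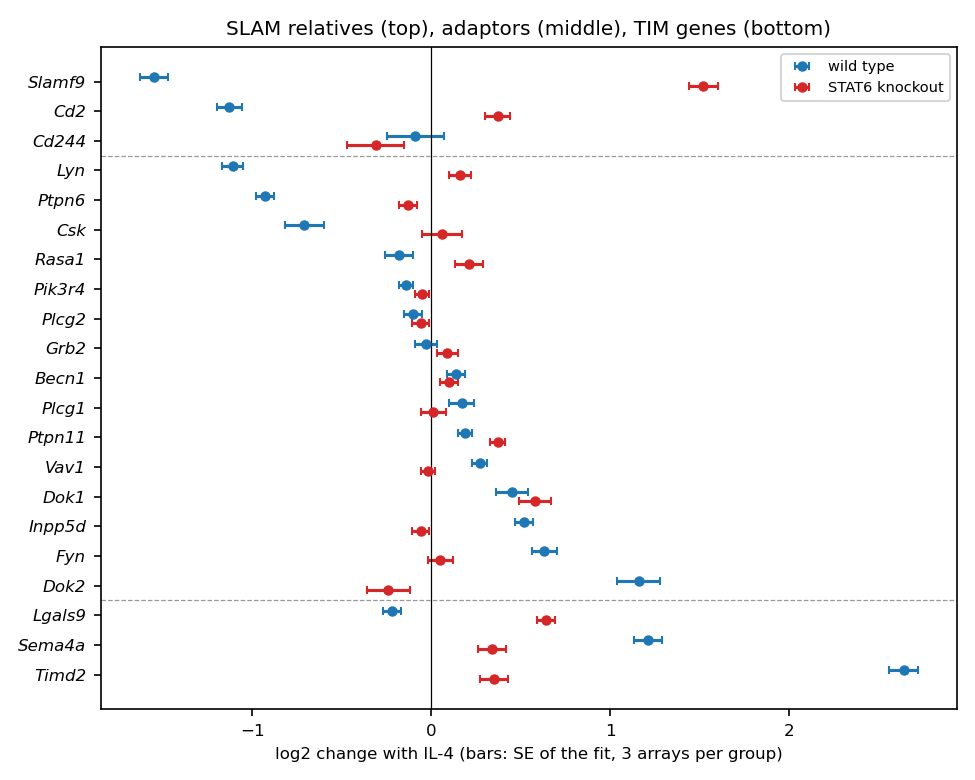
Log2 change with IL-4 (x axis) in wild-type (blue) and STAT6 knockout cells (red). Bars are the SE of the fit, 3 arrays per group. Shown are SLAM genes and relatives outside the members, adaptors and signalling genes, and TIM genes. Slamf9 lies at -1.55 and 1.52, Lyn at -1.11 and 0.16, and Timd2 at 2.64 and 0.35. Pik3c3, which changed by -0.08 and 0.02, is not shown. Its second probe changed by -0.16 (limma, adjusted p = 0.0231 over probes) and 0.05 (adjusted p = 0.497).

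Promoter windows of 250 bases before to 50 after the gene start were taken from RefSeq (GRCm38.p6) for 6 of the 7 members. No window was available for Ly9, which was not searched. The other members have 8 windows in all, because Havcr1 has 3. They were searched for TTC and GAA with any 4 bases between them, the spacing that STAT6 prefers, and for TTC and GAA with any 3 bases between them, the spacing of other STAT proteins. Each motif is its own reverse complement, so the search covers both strands. The wider motif was found in 1 of the 8 windows, that of Slamf1, and in 6.95% of the 32851 windows of the table. The narrower one was found in 0 of the 8 and in 8.3% of the table. The match lies in the 250 bases before the Slamf1 start, at chr1:171766882-171767131 on the plus strand, and begins 148 bases before the start. The stretch is shown, with the match in capitals, because no other window searched held one.
Slamf1, upstream bases: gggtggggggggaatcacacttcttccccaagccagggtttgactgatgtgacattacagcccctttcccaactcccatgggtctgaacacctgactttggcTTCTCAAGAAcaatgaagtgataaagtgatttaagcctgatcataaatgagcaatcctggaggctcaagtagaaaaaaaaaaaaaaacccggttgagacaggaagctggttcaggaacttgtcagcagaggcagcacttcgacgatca
The match is a description of these letters and shows no binding.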

How the data were processed

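Cy3 signals were measured on 12 Agilent 1-colour arrays. Scanner output came from Agilent Feature Extraction 10.7.3.1, per the file headers; its deposited processed signal is an intensity with the background already subtracted and no scaling between arrays. A gene-level file that the authors deposited on the log2 scale, quantile normalised per its first line, served as an alternative.

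Processed signals were taken to log2, and each array's 75th percentile (of 59305 non-control spots) was subtracted. Between 122 and 196 outlier spots per array were left out. Probes had to be well above background on all 3 arrays of some group, with 2 or more values in each group, which left 22940 probes; the brightest of them represented its gene (16497 genes). All 7 members and 11 of their 12 probes passed. Files were read with jsonlite 2.0.0 and the data.table package (1.17.8). In R 4.3.3, limma 3.58.1 fitted the group means over all 12 arrays, with 5 contrasts, and p-values were adjusted by Benjamini-Hochberg within a contrast, over genes or, for second probes, over probes. The 5 contrasts share arrays, so their results are not independent. The procedure was tested on simulated data. Plots used Python 3.11.15 with pandas 2.3.3 and matplotlib 3.10.9.

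The members, lists and motifs were chosen with earlier results of these data known. All members are named in every contrast, with up to 4 genes of each related list by adjusted p. Genes named most like a member are up to 3 with the highest r. Alternatives were quantile and median scaling, normexp (offset 50), no filter and a stricter one, the mean of a gene's probes, the deposited values, eBayes with trend and robust, a fit on the groups compared alone, blocks for slide or replicate number, and leaving out each array. The number of arrays limits the precision. The protein sequences of the members were not used here.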

Additional observations from a re-analysis of the deposited data

Results flagged for a closer look

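For 5 of the 7 members the IL-4 response differed between wild-type and STAT6 knockout cells by the test of the difference itself (limma, adjusted over 16497 genes). The wild-type response was larger for Havcr1 (by 2.18, adjusted p = 3.18e-07), Slamf1 (by 1.25, adjusted p = 2.08e-06) and Slamf7 (by 0.37, adjusted p = 0.0148). It was lower for Slamf6, with a difference of -0.80 (adjusted p = 3.37e-06), and for Ly9, with -0.40 (adjusted p = 7.06e-04). Either way 44.8% of all genes tested passed this test. These values are of the brighter or only probe. The dimmer Slamf6 probe gave -0.29 (limma, adjusted p = 0.0364 over probes), which passed in 8 of 20 alternatives. The wild-type arrays and the knockout IL-4 arrays lie on different slides, and with slide as a block the differences were 2.10, 1.16, 0.43, -0.84 and -0.40 in the same order, each still past the test. These blocked values set the knockout IL-4 arrays against knockout control 3 alone, the only control on their slide, and assume that this array varies like those of the other groups.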

How the results depend on the processing

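By the brighter or only probe, the wild-type responses of Slamf1, Slamf6, Slamf7 and Havcr1 kept their direction and passed in 23 of 23 alternatives. The interactions of Slamf1, Slamf6, Ly9 and Havcr1 did so in 22 of 22. The dimmer Slamf6 probe passed in 18 of 21 for its wild-type fall and in 8 of 20 for its interaction. For the dimmer Havcr1 probe these were 21 of 21 and 20 of 20, and the dimmer Ly9 probe's interaction passed in 20 of 20. Members past the test in the wild type numbered 4 with median scaling and 4 without the filter on dim probes, and without IL-4 the genotypes differed for 7 and 0 under these settings. Genes past 2-fold in the wild type, knockout, interaction and both genotype contrasts, in that order without and then with IL-4, numbered 1181, 226, 1032, 100 and 884 with normexp and 1262, 261, 1053, 105 and 914 with the deposited values, against 2089, 580, 1756, 194 and 1597. Between genotypes without IL-4 they numbered 83 without the filter and 81 with slide as a block. With each array left out the gene counts ranged over 2057 to 2097, 542 to 646, 1652 to 1927, 73 to 305 and 1580 to 1640, and the member counts over 4 to 7, 5 to 6, 5 to 6, 1 to 2 and 6 to 6. The cause of these changes was not tested.

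None of the values that changed sign passed the test under either setting. With quantile normalisation the second Slamf6 probe gave -0.05 in the knockout and -0.02 between genotypes with IL-4, where Cd84 gave -0.05, and with median scaling these last were -0.03 and -0.05. Cd48 in the knockout was 0.15 with median scaling, 0.00 with normexp and 0.12 with slide as a block, and its second probe 0.07 and 0.04 with median scaling and slide. With each array left out, Cd84 between genotypes with IL-4 ranged from -0.03 to 0.06, the second Slamf6 probe from -0.01 to 0.08, and Cd48 in the knockout from -0.07 to 0.05. Median scaling moved the median of all genes to 0.20 in the knockout, -0.23 for the interaction and -0.22 between genotypes without IL-4. Among genes past 2-fold, the higher ones made up 22.4%, 52.7% and 71.1% in those contrasts and 43.0%, 41.5% and 47.2% with median scaling. Between genotypes without IL-4 they made up 60.1% with quantile normalisation and 84.0% with normexp.

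The replicate numbers were not taken as pairing the samples, because the labels do not say that they do. Of 18 same-numbered pairs, 2 correlated above 0.1 in their deviations, over a range of -0.24 to 0.39. Both were knockout control with knockout IL-4, at 0.32 for number 1 and 0.39 for number 3, while number 2 gave -0.02. Wild-type control with wild-type IL-4 gave 0.04, 0.07 and 0.03, and the remaining pairs crossed genotypes. Differently numbered pairs were not compared, so these values cannot settle whether samples were paired. With replicate number as a block, genes past 2-fold numbered 2090, 585, 1747, 189 and 1595. The rise of Ly9 in the wild type was 0.12 with that block and did not pass (adjusted p = 0.0661), nor did its second probe (0.0662) or the second Slamf6 probe between genotypes without IL-4 (0.0559).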
